A study of Mus musculus with 19 samples.

Results

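The genes described here encode 5 costimulatory receptors of the tumour necrosis factor (TNF) receptor family and the ligand of each, 10 genes of the 46983 in the count table. They were taken by symbol, and all 10 were present. The pairs are OX40 (Tnfrsf4) with OX40L (Tnfsf4), GITR (Tnfrsf18) with GITRL (Tnfsf18), CD27 with CD70, 4-1BB (Tnfrsf9) with 4-1BBL (Tnfsf9), and CD40 with CD40L (Cd40lg). Of these, 9 passed the filter on low counts that left 16763 genes, and Cd70 did not.

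RNA was sequenced from 19 samples of tumours that formed after 4T1 cells, an established line of mouse mammary carcinoma, were implanted in syngeneic BALB/cAnN mice. The tumour cells were either control 4T1 or 4T1 with knockdown of lactate dehydrogenase A (LDHA-KD), and the mice received either anti-CTLA-4, which blocks an inhibitory receptor of T cells, or control IgG, 3 times at intervals of 3 days from day 3 after implantation. This gave control tumours with IgG (n = 4, replicates 1, 3, 4 and 5), control tumours with anti-CTLA-4 (n = 5), and LDHA-KD tumours with either IgG (n = 5) or anti-CTLA-4 (n = 5). The comparisons ask how LDHA deficiency of the tumour and CTLA-4 blockade each change expression, and whether one alters the other. The knockdown was in the implanted cells and not in the host. How it was made, whether the line is a clone, and the age and sex of the mice are not given in the sources used here. No label says that each sample came from a separate animal, so the spread behind each p-value is that between samples and may be technical.

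OX40, GITR and 4-1BB are carried by activated or regulatory T cells, CD27 already by naive T cells, and some of them by other leukocytes. Their ligands sit mainly on antigen-presenting cells and deliver signals through TRAF adaptors to the NF-kB pathway that favour survival and proliferation. CD40 runs the other way, with the receptor on dendritic cells, macrophages and B cells and the ligand on activated helper T cells. In tumours OX40 and GITR are known for their high levels on regulatory T cells, and 4-1BB for marking activated T cells, while myeloid and tumour cells can also make 4-1BB and its ligand.

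Gene counts per library ran from 31.8 to 43.3 in units of 1000000. Levels are given as counts per 1000000 of the scaled library total (CPM), and 3 counts, the limit that a count of 0 allows, correspond to between 0.0698 and 0.0926 CPM, for counting error only. Ldha itself had 1600.0 ± 264 (SD, n = 4) and 1914 ± 257 (n = 5) CPM in control tumours with IgG and anti-CTLA-4, and after knockdown its CPM was 485 ± 27.2 (n = 5) and 541 ± 38.2 (n = 5). The 7 markers of the epithelial tumour cells averaged sums of 4159 and 4027 CPM in control tumours and 3221 and 2747 CPM in LDHA-KD tumours, with IgG and anti-CTLA-4 in that order. Replicates 3 and 5 of both anti-CTLA-4 groups stood apart on the second principal component, which held 17.0% of the variance. These 4 libraries also had the highest sums of the 6 neutrophil markers, 794 and 1199.6 CPM in control tumours and 1364 and 1197 CPM in LDHA-KD tumours, against 248 to 763 CPM in the other libraries. Values without them are given where they bear on a result.

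RefSeq promoter windows (GRCm38.p6) matched 5 of the 10 genes. The 250 bases before the start are shown for the 3 receptors that rose together in LDHA-KD tumours and for Tnfrsf9, which did not. All are 5′ to 3′ on the gene's strand, Tnfrsf18 is shown up to its first annotated exon, and capitals mark a motif match.
Tnfrsf4, chr4:156013445-156013694, plus strand: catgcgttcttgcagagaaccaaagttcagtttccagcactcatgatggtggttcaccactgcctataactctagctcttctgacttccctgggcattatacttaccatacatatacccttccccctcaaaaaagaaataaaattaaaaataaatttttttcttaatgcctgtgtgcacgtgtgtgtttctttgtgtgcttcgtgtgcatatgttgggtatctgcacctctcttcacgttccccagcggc
Tnfrsf18, chr4:156026072-156026163, plus strand: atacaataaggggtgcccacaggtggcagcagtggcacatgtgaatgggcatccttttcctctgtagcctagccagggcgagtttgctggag
Cd27, chr6:125237028-125237277, minus strand: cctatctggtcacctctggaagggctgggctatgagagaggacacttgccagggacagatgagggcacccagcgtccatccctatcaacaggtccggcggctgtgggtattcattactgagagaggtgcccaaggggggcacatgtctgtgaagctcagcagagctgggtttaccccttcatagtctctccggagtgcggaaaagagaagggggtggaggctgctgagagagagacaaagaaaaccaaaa
Tnfrsf9, upstream start, chr4:150919905-150920154, plus strand: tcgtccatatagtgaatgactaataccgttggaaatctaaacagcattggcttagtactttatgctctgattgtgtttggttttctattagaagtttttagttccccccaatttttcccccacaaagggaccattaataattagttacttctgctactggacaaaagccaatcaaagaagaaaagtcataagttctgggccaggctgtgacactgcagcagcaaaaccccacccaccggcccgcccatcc
Tnfrsf9, downstream start, 30 bases at chr4:150927946-150927975, plus strand: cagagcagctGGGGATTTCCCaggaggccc

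Each window was searched on both strands for the kappaB consensus of NF-kB, for the AP-1 motif TGANTCA and for TATAAA. The windows of Tnfrsf4, Tnfrsf18 and Cd27 and the upstream Tnfrsf9 window held none of them. The Tnfrsf9 windows lie inside the annotated gene, which begins at chr4:150914562, and the bases before that position were not searched. The window of the downstream Tnfrsf9 start held 2 overlapping kappaB matches, beginning 43 and 42 bases before the start, and the AP-1 match TGAGTCA 15 bases before it. In that window 81 bases, including these matches, lie in an annotated exon of Tnfrsf9. The Tnfsf18 window held TATAAA 34 bases before the start. Of 32851 windows of the same length, 7.25% held a kappaB match, 6.75% an AP-1 match and 12.4% a TATAAA match. Such matches describe letters in these windows and do not show binding.

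Measured per 1000 exonic bases, so that genes can be compared, the levels spanned a wide range. In control tumours with IgG, Tnfrsf9 led with 31.7 ± 10.4 (SD, n = 4) CPM per 1000 bases, followed by its ligand Tnfsf9 with 9.94 ± 3.67, and their ranges did not overlap. Cd40 (3.02 ± 0.573), Tnfrsf4 (2.05 ± 0.762) and Tnfrsf18 (1.76 ± 0.508) came next, and each overlapped its neighbour. Cd27 (0.481 ± 0.180) lay below all of them, and Tnfsf18 (0.152 ± 0.101), Tnfsf4 (0.147 ± 0.0565) and Cd40lg (0.106 ± 0.0238) overlapped one another at the bottom, above Cd70 with no count. In LDHA-KD tumours with anti-CTLA-4 the order per 1000 bases was Tnfrsf9 (37.4 ± 13.5, n = 5), then Tnfsf9 (9.34 ± 2.95), Tnfrsf4 (8.66 ± 1.61) and Tnfrsf18 (8.36 ± 1.16), which overlapped one another, then Cd40 (4.14 ± 0.742) and Cd27 (2.37 ± 0.677). The means of Tnfrsf4 and Tnfrsf18 thus stood below that of Cd40 in control tumours with IgG, with overlap, and above it in these, without. The levels of all 10 genes in each library are plotted by group.

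**Figure D1:**
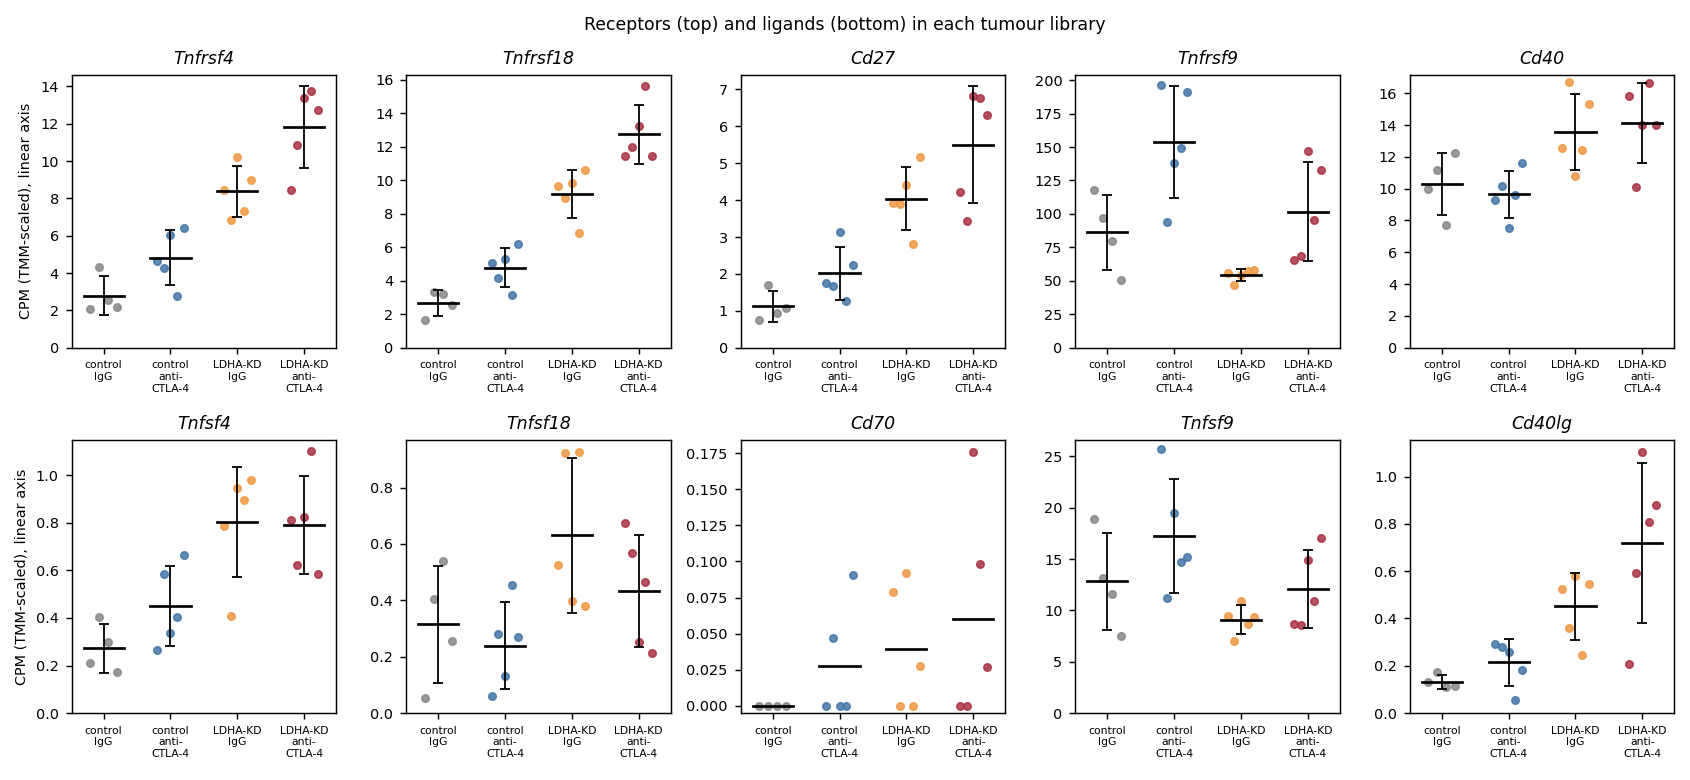
CPM (vertical, linear axis from 0, a separate scale per gene) of the 5 receptors (top) and 5 ligands (bottom) in the 4 groups; points are libraries, horizontal bars the mean, error bars 1 SD (none drawn for Cd70). Tnfrsf4, Tnfrsf18 and Cd27 are higher in every LDHA-KD library than in every control library of the same treatment, while Tnfrsf9 and Tnfsf9 are not.

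Comparing LDHA-KD with control tumours under IgG, 3 receptors and 2 ligands rose: Tnfrsf4, Tnfrsf18, Cd27, Tnfsf4 and Cd40lg. Their increases ran from 2.93-fold (Tnfsf4) to 3.61-fold (Cd27), and none of the 5 overlapped between the groups. Tnfrsf9 went the other way, 1.59-fold lower. Cd40, Tnfsf9 and Tnfsf18 did not pass the test. Of the 9 genes tested, 5 were called higher and 1 lower. Among all 16763 genes, 16.8% were called higher and 17.5% lower, and 30.4% did not overlap between these groups, so being called is common in this comparison.

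Under anti-CTLA-4, comparing LDHA-KD with control tumours called 6 of the 9 genes higher and 0 lower by edgeR (DESeq2 and limma voom each called 1 lower, and 2 had an unadjusted p under 0.05 and a lower level). The genes that rose were Tnfrsf4, Tnfrsf18, Cd27, Cd40, Tnfsf4 and Cd40lg. Among all genes 20.2% were called higher and 19.8% lower, and 23.2% did not overlap between the groups, against 3 of the 9 genes, namely Tnfrsf4, Tnfrsf18 and Cd27. The median log2 fold change of the 5 receptors was 1.58 under IgG and 1.29 under anti-CTLA-4, and that of the 4 tested ligands was 1.28 and 0.83, beside a median near 0 over all genes. The fitted differences are plotted with their intervals.

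**Figure D2:**
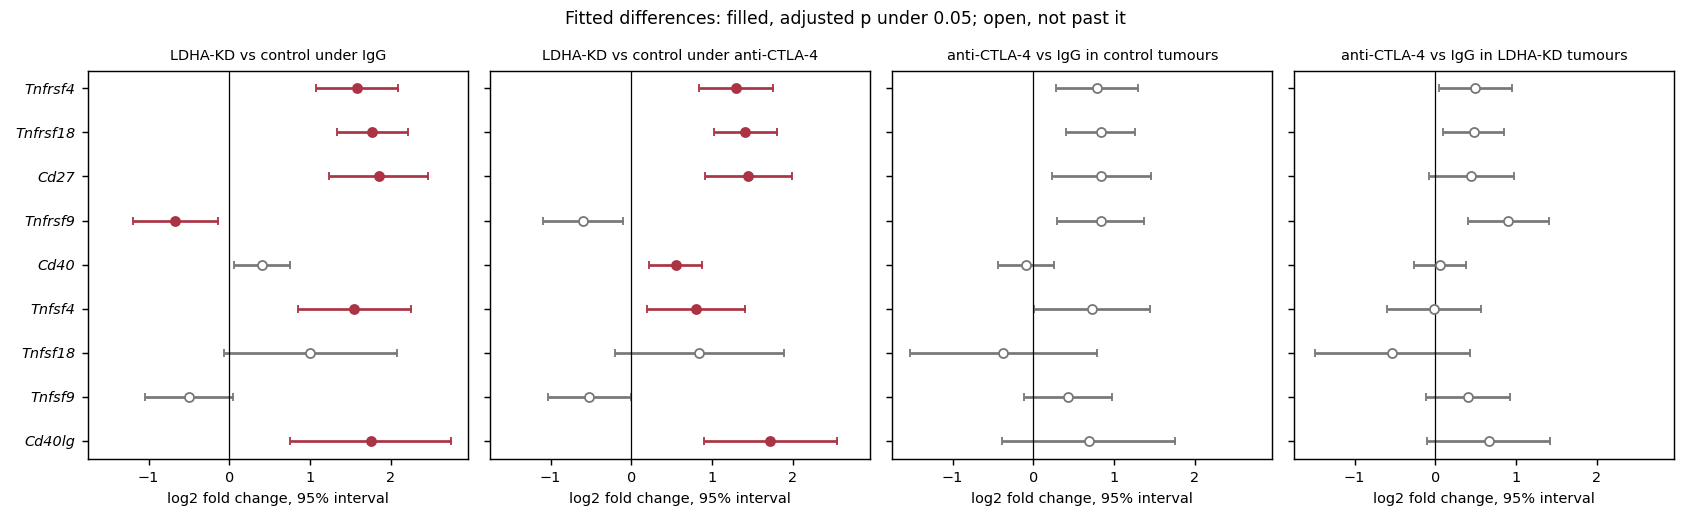
Log2 fold change (horizontal) of the 9 tested genes in 4 comparisons, with 95% intervals from edgeR's quasi-likelihood fit; filled points have an adjusted p under 0.05. In both comparisons of LDHA-KD with control tumours Tnfrsf4, Tnfrsf18 and Cd27 lie well above 0 and Tnfrsf9 below it, and no point is filled in the comparisons of anti-CTLA-4 with IgG.

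GITR, encoded by Tnfrsf18, is a receptor of regulatory and activated T cells. It stood at 1.64, 3.34, 3.19 and 2.54 CPM in the control IgG libraries and at 5.06, 4.19, 5.29, 3.14 and 6.21 CPM in the control libraries after anti-CTLA-4. Knockdown libraries gave 9.65, 8.92, 9.81, 6.82 and 10.6 CPM under IgG, then 11.5, 12.0, 13.2, 15.6 and 11.4 CPM under anti-CTLA-4. Every LDHA-KD library was above every control library, whatever the treatment. Under IgG it was higher in LDHA-KD tumours by 1.78 on the log2 scale, a 3.42-fold difference (SE 0.21, edgeR adjusted p = 3.22e-06), and under anti-CTLA-4 by 1.42, or 2.67-fold (SE 0.19, adjusted p = 1.07e-05). Tnfrsf18 (chr4:156026164-156028895, GRCm38, plus strand) shares 414 exonic bases with the antisense gene Gm16008, and the strand setting of the counting is not given. Gm16008 itself averaged between 0.139 and 0.273 CPM per group.

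OX40, encoded by Tnfrsf4 at chr4:156013843-156016612 (plus strand), lies 9551 bases from Tnfrsf18. Its CPM values were 2.09, 4.32, 2.57 and 2.20 in control tumours with IgG and 4.64, 4.26, 6.02, 2.76 and 6.43 with anti-CTLA-4. Knockdown tumours showed 8.47, 6.85, 10.2, 7.32 and 9.01 CPM on IgG, against 8.44, 10.9, 13.4, 13.8 and 12.7 CPM after anti-CTLA-4. Here too the lowest LDHA-KD library was above the highest control library. This was a log2 difference of 1.58 for IgG-treated tumours (SE 0.24, edgeR adjusted p = 6.22e-05) and of 1.29 for those given anti-CTLA-4 (SE 0.22, adjusted p = 0.00014).

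CD27, which T cells carry before they are activated, was the scarcest of these 3 receptors. Cd27 (chr6:125232622-125237010, minus strand) reached 0.741, 1.71, 0.947 and 1.08 CPM in the control IgG libraries, from 28 to 59 counts, and 1.76, 1.66, 3.14, 1.26 and 2.23 CPM in those given anti-CTLA-4. With the knockdown it reached 3.92, 3.90, 4.40, 2.81 and 5.17 CPM under IgG, or 4.21, 3.43, 6.82, 6.77 and 6.31 CPM under anti-CTLA-4. Groups did not overlap within a treatment, but control anti-CTLA-4 replicate 3 was above LDHA-KD IgG replicate 4. The rise amounted to 3.61-fold under IgG (log2 1.85, SE 0.29, edgeR adjusted p = 8.47e-05) and 2.74-fold under anti-CTLA-4 (log2 1.45, SE 0.26, adjusted p = 0.000232). The microRNA gene Mir8113, which shares 129 exonic bases with Cd27, had 0 CPM in all groups.

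CD70, the ligand of CD27, was at the limit of detection. Cd70 (chr17:57145997-57149777, minus strand), 38239 bases from Tnfsf9, had 0 counts in the 4 control IgG libraries, 5 counts in 2 of 5 control anti-CTLA-4 libraries, 7 counts in 3 of 5 LDHA-KD IgG libraries and 12 counts in 3 of 5 LDHA-KD anti-CTLA-4 libraries. The highest single library had 7 counts. Cd70 fell below the filter on low counts and was not tested.

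4-1BB, encoded by Tnfrsf9 at chr4:150914562-150946102 (plus strand), is a receptor of activated T and natural killer cells. Control libraries contained 118, 96.9, 79.8 and 50.8 CPM on IgG, while 197, 94.2, 138, 149 and 191 CPM were found after anti-CTLA-4. The knockdown libraries contained 55.8, 46.6, 54.1, 57.6 and 57.8 CPM on IgG, while 65.9, 68.3, 147, 95.1 and 133 CPM were found after anti-CTLA-4. The LDHA-KD IgG libraries were close together and lay below all control IgG libraries but replicate 5. Knockdown minus control gave a log2 difference of -0.67 under IgG (SE 0.25, edgeR adjusted p = 0.0471) and -0.60 under anti-CTLA-4 (SE 0.24, adjusted p = 0.0528), with overlapping groups in both. The call under IgG ended in 15 of 27 alternatives, among them limma voom (adjusted p = 0.0792) and leaving out control IgG replicate 1 (0.187), 3 (0.105) or 4 (0.0608), any LDHA-KD IgG library (0.0644 to 0.0971), control anti-CTLA-4 replicate 3, 4 or 5, or LDHA-KD anti-CTLA-4 replicate 4. The difference under anti-CTLA-4 passed the threshold in 10 of 27 alternatives, among them DESeq2 (adjusted p = 0.0356) and limma voom (0.0458). Without the 4 libraries that stood apart, the Tnfrsf9 difference under anti-CTLA-4 was -0.94 (adjusted p = 0.0161). Neutrophil markers summed to means of 386 and 769 CPM in control tumours and 505 and 891 CPM in LDHA-KD tumours (IgG before anti-CTLA-4). Megakaryocyte and platelet markers summed to means of 54.1, 105, 70.7 and 123 CPM in the same order. Both thus had higher means after anti-CTLA-4, as Tnfrsf9 had. The neutrophil sums overlapped between treatments in both tumour types, the megakaryocyte and platelet sums in LDHA-KD tumours only. Neither Tnfrsf9 nor any of these markers was called by edgeR between anti-CTLA-4 and IgG. The part of these cell types in the level of Tnfrsf9 was not tested.

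4-1BBL, the ligand encoded by Tnfsf9 (chr17:57105325-57107757, plus strand), had, like its receptor, its highest mean in control tumours with anti-CTLA-4 and its lowest in LDHA-KD tumours with IgG. Control values were 18.9, 13.2, 11.6 and 7.53 CPM for IgG, compared with 25.7, 11.2, 19.5, 14.7 and 15.2 CPM for anti-CTLA-4. Knockdown values were 9.50, 7.03, 10.9, 8.67 and 9.34 CPM for IgG, compared with 8.70, 8.59, 14.9, 11.0 and 17.1 CPM for anti-CTLA-4. The groups overlapped, and neither difference between LDHA-KD and control tumours passed the test, with log2 fold changes of -0.50 (95% interval -1.04 to 0.048, adjusted p = 0.150) under IgG and -0.52 (-1.03 to -0.0080, adjusted p = 0.0973) under anti-CTLA-4. The difference under anti-CTLA-4 passed the threshold in 4 of 27 alternatives, among them without the 4 libraries that stood apart (-0.87, edgeR adjusted p = 0.0441). Under IgG it passed in 2 of 27, among them without control IgG replicate 5 (-0.68, edgeR adjusted p = 0.0494). Tnfsf9 shares 192 exonic bases with Gm11110 on the opposite strand, which averaged 5.59 and 6.24 CPM in control tumours and 4.22 and 4.45 CPM in LDHA-KD tumours, so reads of the pair may be mixed.

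OX40L, encoded by Tnfsf4 (chr1:161395409-161418410, plus strand) and made by antigen-presenting cells, was scarce, with 6 to 45 counts per library. Its CPM values were 0.212, 0.406, 0.298 and 0.171 in control tumours with IgG and 0.265, 0.585, 0.337, 0.402 and 0.664 with anti-CTLA-4. After knockdown they became 0.789, 0.410, 0.948, 0.895 and 0.980 with IgG and 0.814, 0.621, 0.827, 1.10 and 0.586 with anti-CTLA-4. Under IgG the groups only just failed to overlap, since LDHA-KD replicate 2 lay beside control replicate 3. Tnfsf4 rose 2.93-fold under IgG (log2 1.55, SE 0.33, edgeR adjusted p = 0.00134). Under anti-CTLA-4 it was 0.81 (SE 0.29, adjusted p = 0.0328), with overlapping groups, and this call ended in 7 of 27 alternatives, namely with no filter on low counts (adjusted p = 0.0527), on leaving out control anti-CTLA-4 replicate 1 (0.0881), 3 (0.0763) or 4 (0.0660), without LDHA-KD anti-CTLA-4 replicate 3 (0.0546) or 4 (0.0977), and without the 4 libraries that stood apart (0.0615).

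GITRL, encoded by Tnfsf18 at chr1:161494655-161505290 (plus strand), 76244 bases from Tnfsf4, did not pass the test. It had from 2 to 20 counts in control libraries and from 8 to 36 in LDHA-KD libraries, with mean CPM of 0.314 ± 0.209 (SD, n = 4) and 0.239 ± 0.154 (n = 5) in control tumours and 0.631 ± 0.274 (n = 5) and 0.434 ± 0.199 (n = 5) in LDHA-KD tumours, with IgG and anti-CTLA-4 in that order. Its log2 difference between knockdown and control had a 95% interval of -0.070 to 2.08 under IgG (edgeR adjusted p = 0.140) and of -0.20 to 1.90 under anti-CTLA-4 (adjusted p = 0.188).

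CD40, the receptor of antigen-presenting cells, differed by less than the T cell receptors above. Cd40 (chr2:165055627-165072948, plus strand) measured 9.95, 11.2, 7.71 and 12.3 CPM in control IgG libraries, next to 9.26, 10.2, 7.52, 9.63 and 11.6 CPM after anti-CTLA-4. In the knockdown it measured 12.5, 16.7, 10.8, 12.4 and 15.4 CPM on IgG, next to 15.8, 10.1, 14.0, 16.6 and 14.0 CPM after anti-CTLA-4. The groups overlapped, mainly through 1 low library in each LDHA-KD group. The fitted difference of 0.40 under IgG (log2, SE 0.17, edgeR adjusted p = 0.0666) missed the threshold, and that of 0.55 under anti-CTLA-4 (SE 0.16, adjusted p = 0.00845) passed it but lost its call without the 4 libraries that stood apart (adjusted p = 0.0558).

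CD40L, the ligand on activated helper T cells encoded by Cd40lg (chrX:57212143-57224042, plus strand), rested on 2 to 44 counts per library. Without the knockdown its CPM was 0.132, 0.174, 0.108 and 0.114 on IgG, versus 0.294, 0.281, 0.259, 0.0536 and 0.181 on anti-CTLA-4. With it, the CPM was 0.526, 0.359, 0.581, 0.247 and 0.544 on IgG, versus 0.209, 0.594, 1.10, 0.809 and 0.879 on anti-CTLA-4. Under anti-CTLA-4 only LDHA-KD replicate 1 lay among the control libraries. Cd40lg was higher by 1.75 under IgG (log2, SE 0.48, edgeR adjusted p = 0.00771) and by 1.72 under anti-CTLA-4 (SE 0.39, adjusted p = 0.00191), where the call was lost without the 4 libraries that stood apart (adjusted p = 0.0701).

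The average of the LDHA-KD difference over both treatments was added after seeing the data. It called 26.5% of all genes higher and 26.6% lower. Among the 9 genes it called 7 higher, including Cd40 (0.48, SE 0.11, adjusted p = 0.00162) and Tnfsf18 (0.92, SE 0.36, adjusted p = 0.0365). Tnfrsf9 (-0.63, SE 0.17, adjusted p = 0.00481) and its ligand Tnfsf9 (-0.51, SE 0.18, adjusted p = 0.0222) were the 2 called lower.

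Anti-CTLA-4 against IgG called no gene at the adjusted threshold, either in control tumours (0% higher and 0% lower of all genes by edgeR, and 0 of the 9 described here) or in LDHA-KD tumours (0% in each direction, and 0 of the 9). DESeq2 called 12 and 47 genes in these comparisons, none of them among the 9, and limma voom called 0. At an unadjusted p under 0.05 edgeR had 1346 genes in control tumours, 4.69% of all genes higher and 3.33% lower, and 1987 in LDHA-KD tumours, 8.18% higher and 3.67% lower. Groups did not overlap for 1.27% and 1.38% of genes.

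In control tumours 5 of the 9 genes had an unadjusted p under 0.05, all higher with anti-CTLA-4, and all failed the correction. They were Tnfrsf18 (log2 fold change 0.83, SE 0.21), Tnfrsf9 (0.83, SE 0.26), Tnfrsf4 (0.79, SE 0.24), Cd27 (0.85, SE 0.29) and Tnfsf4 (0.73, SE 0.34), with edgeR adjusted p from 0.581 to 0.618. For each of the 4 receptors, 90% of the library pairs were higher with anti-CTLA-4. Among LDHA-KD tumours 3 of the 9 had an unadjusted p under 0.05. These were Tnfrsf9 (0.90, SE 0.24, edgeR adjusted p = 0.293), Tnfrsf18 (0.48, SE 0.18, adjusted p = 0.335) and Tnfrsf4 (0.50, SE 0.21, adjusted p = 0.374), and they too failed the correction. Tnfrsf9 and Tnfrsf18 were higher in every anti-CTLA-4 library than in every IgG library.

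Averaged over both tumour types, a comparison added after seeing the data, anti-CTLA-4 against IgG called 0% of genes higher and 0% lower, with 3027 genes at an unadjusted p under 0.05. Tnfrsf9 (0.87, SE 0.18) and Tnfrsf18 (0.66, SE 0.14) both had an adjusted p of 0.0835 there. Cd40 differed least, with -0.017 (95% interval -0.25 to 0.22). Without the 4 libraries that stood apart, the difference in LDHA-KD tumours was 0.49 for Tnfrsf9, 0.51 for Tnfrsf18 and 0.40 for Tnfrsf4, and in control tumours it was 0.77, 0.63 and 0.48.

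The interaction, which subtracts the anti-CTLA-4 difference of control tumours from that of LDHA-KD tumours, was called for 0% of genes by edgeR and for 0 by DESeq2, with 415 genes at an unadjusted p under 0.05 in edgeR. Among the 9 genes the lowest unadjusted p was 0.107, for Tnfsf4 (-0.75, 95% interval -1.67 to 0.18). Tnfrsf9 had 0.070 (-0.65 to 0.80), Tnfrsf18 had -0.36 (-0.93 to 0.21), and these intervals do not show that the effects were equal.

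T cell genes moved in the same comparisons. All 10 T cell markers were called higher in LDHA-KD than in control tumours under both treatments, with median log2 fold changes of 1.98 and 1.48, and their summed level per library ran from 11.4 to 29.4 CPM in control tumours with IgG, 25.4 to 52.2 with anti-CTLA-4, 53.3 to 85.7 in LDHA-KD tumours with IgG and 71.5 to 129.7 with anti-CTLA-4. In such bulk samples, more cells of a type and more RNA per cell cannot be told apart. The 4 CD3 chains (Cd3d, Cd3e, Cd3g and Cd247), parts of the T cell receptor complex, summed to 8.09 ± 3.05 (SD, n = 4), 16.5 ± 4.55 (n = 5), 30.3 ± 4.26 (n = 5) and 46.3 ± 11.0 (n = 5) CPM in the 4 groups in the same order. Several other leukocyte lists were mostly higher, with 4 of 5 regulatory T cell, 5 of 5 natural killer, 6 of 6 mast cell and 7 of 8 macrophage markers called higher under IgG and 4, 5, 6 and 8 under anti-CTLA-4. Of the regulatory T cell markers 1 was called lower under IgG. Their summed level was 63.0 ± 14.7 (SD, n = 4) and 69.6 ± 5.16 (n = 5) CPM in control tumours with IgG and anti-CTLA-4. In LDHA-KD tumours it was 69.2 ± 8.76 (n = 5) and 98.2 ± 15.1 (n = 5), so under IgG the sums were close and overlapped. A sum is weighted to the most abundant markers and does not show how most of them moved. The median log2 fold change of these 5 markers was 1.27 under IgG and 1.41 under anti-CTLA-4. Lists of cells that can carry CD40 or the ligands were mixed: of the migratory dendritic cell markers 3 of 5 were called higher and 2 lower under both treatments, of the conventional dendritic cell markers 3 of 5 higher and 1 lower under both, and of the 4 tested B cell markers 2 were called higher under IgG and 1 under anti-CTLA-4. The summed migratory dendritic cell markers averaged 184 and 187 CPM in control tumours and 152 and 171 CPM in LDHA-KD tumours, with IgG and anti-CTLA-4 in that order. This sum too is weighted to abundant markers, and the median log2 fold change of the 5 was 1.44 under IgG and 1.40 under anti-CTLA-4. Neutrophil markers were called higher for 1 of 6 under IgG and 0 of 6 under anti-CTLA-4 by edgeR, where 1 had an unadjusted p under 0.05. Endothelial markers were called lower for 5 of 6 and 3 of 6, and epithelial tumour cell markers for 2 of 7 and 4 of 7. Beside these counts, 16.8% of all genes were called higher and 17.5% lower under IgG, and 20.2% and 19.8% under anti-CTLA-4. Counts near these shares are no result about a list. The part of these cell types in the differences of the receptors and ligands was not tested.

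Set against the CD3 chains, Tnfrsf4, Tnfrsf18 and Cd27 differed less between groups than their CPM did. Tnfrsf18 per 100 CPM of CD3 chains was 34.1 ± 3.77 (SD, n = 4), 29.3 ± 3.55 (n = 5), 30.2 ± 1.25 (n = 5) and 28.1 ± 4.04 (n = 5) CPM in control tumours with IgG and anti-CTLA-4 and in LDHA-KD tumours with IgG and anti-CTLA-4. For Tnfrsf4 the values were 35.9 ± 8.77, 29.1 ± 3.04, 27.7 ± 3.08 and 25.9 ± 3.86, and for Cd27 they were 14.4 ± 3.27, 12.1 ± 1.41, 13.2 ± 1.15 and 12.1 ± 3.10. The Tnfrsf4 mean was highest in the first group and lowest in the last, with single libraries from 22.9 to 46.5, and all 4 groups overlapped for each of these genes. These ratios are a description, with no test. Cd40lg means on this scale ran from 1.31 ± 0.688 (n = 5) to 1.82 ± 0.791 (n = 4).

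Tnfrsf9 and Tnfsf9 did not keep pace with the CD3 chains. Tnfrsf9 per 100 CPM of CD3 chains ran from 758 to 2614 CPM (median 833) in control tumours with IgG, from 632 to 1321 (median 926) with anti-CTLA-4, from 159 to 242 (median 168) in LDHA-KD tumours with IgG and from 151 to 340 (median 199) with anti-CTLA-4. The highest value belonged to control IgG replicate 1, and the other 3 control IgG libraries lay between 758 and 865. Tnfsf9 had medians of 117 and 89.5 in control tumours and 31.3 and 26.3 in LDHA-KD tumours. For both genes every control library was above every LDHA-KD library on this scale. The CD3 sums alone separated these libraries, at most 21.8 CPM in control and at least 23.8 CPM in LDHA-KD tumours. A gene with unchanged CPM is therefore lower on this scale in LDHA-KD tumours. In CPM both genes overlapped between LDHA-KD and control tumours, and the share of all genes that separate on this scale was not computed. Cd40 had medians of 141 and 61.8 on this scale in control tumours with IgG and anti-CTLA-4, and of 44.5 and 27.8 after knockdown. Its mean CPM was 10.3 and 9.64 in control and 13.6 and 14.1 in LDHA-KD tumours, so only the ratio was lower with knockdown. The ratios overlapped between treatments in each tumour type. Under anti-CTLA-4 they also overlapped between LDHA-KD (22.3 to 47.9) and control tumours (34.5 to 85.1).

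**Figure D3:**
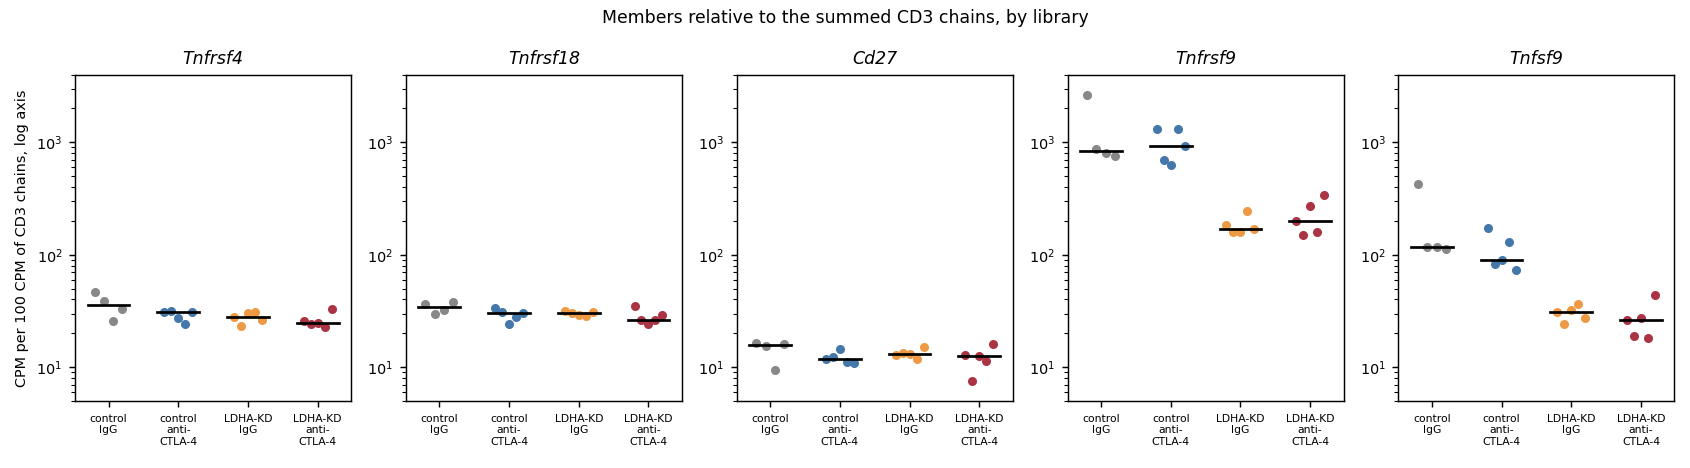
CPM of each gene per 100 CPM of the 4 CD3 chains (vertical, log axis, the same scale in all panels) in the 4 groups; points are libraries and bars the median. Tnfrsf4, Tnfrsf18 and Cd27 overlap across the 4 groups, while Tnfrsf9 and Tnfsf9 are lower in every LDHA-KD library than in every control library. The summed CD3 chains, the denominator, are themselves higher in every LDHA-KD library than in every control library.

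Receptor and ligand, except Cd27 and Cd70, were also compared within each library, as the log2 CPM of the receptor minus that of the ligand. For Tnfrsf9 and Tnfsf9 this difference was 2.76 ± 0.10 (SD, n = 4) and 3.16 ± 0.33 (n = 5) in control tumours with IgG and anti-CTLA-4, and 2.59 ± 0.17 (n = 5) and 3.06 ± 0.15 (n = 5) in LDHA-KD tumours. It was higher in every LDHA-KD anti-CTLA-4 library (2.92 to 3.30) than in every LDHA-KD IgG library (2.31 to 2.73). For Tnfrsf4 and Tnfsf4 it stayed between 3.38 ± 0.24 (n = 4) and 3.92 ± 0.42 (n = 5) over the groups. For Cd40 and Cd40lg it was 6.28 ± 0.32 (n = 4) in the control IgG group, against 4.47 ± 1.02 (n = 5) in the LDHA-KD anti-CTLA-4 group.

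Within groups, the receptors differed in how they went with T cell genes. Pearson's r was computed over the 19 libraries on deviations of log2 CPM from the group mean, as a description without a test, and the libraries share their depth and scaling between genes. With the mean of the T cell markers, r was 0.87 for Tnfrsf4, 0.87 for Tnfrsf18 and 0.85 for Cd27, but 0.18 for Tnfrsf9 and -0.06 for Cd40. On the 15 libraries left without the 4 that stood apart, these were 0.85, 0.90, 0.81, 0.03 and 0.01. For the regulatory T cell markers, r in the same order of genes was 0.81, 0.51, 0.65, 0.55 and 0.13. On those 15 libraries it was 0.84, 0.53, 0.68, 0.33 and 0.01. With the macrophage markers Tnfrsf9 had -0.62 and its ligand Tnfsf9 -0.58, against 0.17 for Tnfrsf4, 0.50 for Tnfrsf18 and 0.41 for Cd27. For the epithelial tumour cell markers r depended on the 4 libraries. It was 0.003 for Tnfrsf9 and 0.04 for Tnfsf9 over all libraries, but 0.66 and 0.53 without the 4. Tnfrsf4, Tnfrsf18 and Cd27 had 0.15, 0.22 and 0.004 there, and 0.58, 0.38 and 0.42 without them. With the fibroblast markers Tnfrsf9 and Tnfsf9 had 0.07 and -0.14, and -0.53 and -0.60 without them. The neutrophil markers had r of 0.76 with Tnfrsf9, 0.63 with Tnfsf9, 0.61 with Tnfrsf4, 0.58 with Cd27 and 0.39 with Tnfrsf18, and without the 4 libraries 0.59, 0.61, 0.51, 0.46 and 0.39. For the 3 megakaryocyte and platelet markers the values in the same order of genes were 0.81, 0.76, 0.62, 0.61 and 0.35, and 0.70, 0.74, 0.54, 0.46 and 0.38 without them. Between Tnfrsf9 and Tnfsf9 r was 0.87 over all libraries and 0.93 without the 4. Cd40 had its highest r, 0.70, with the natural killer cell markers, and Tnfsf18 had 0.77 with the mast cell markers.

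**Figure D4:**
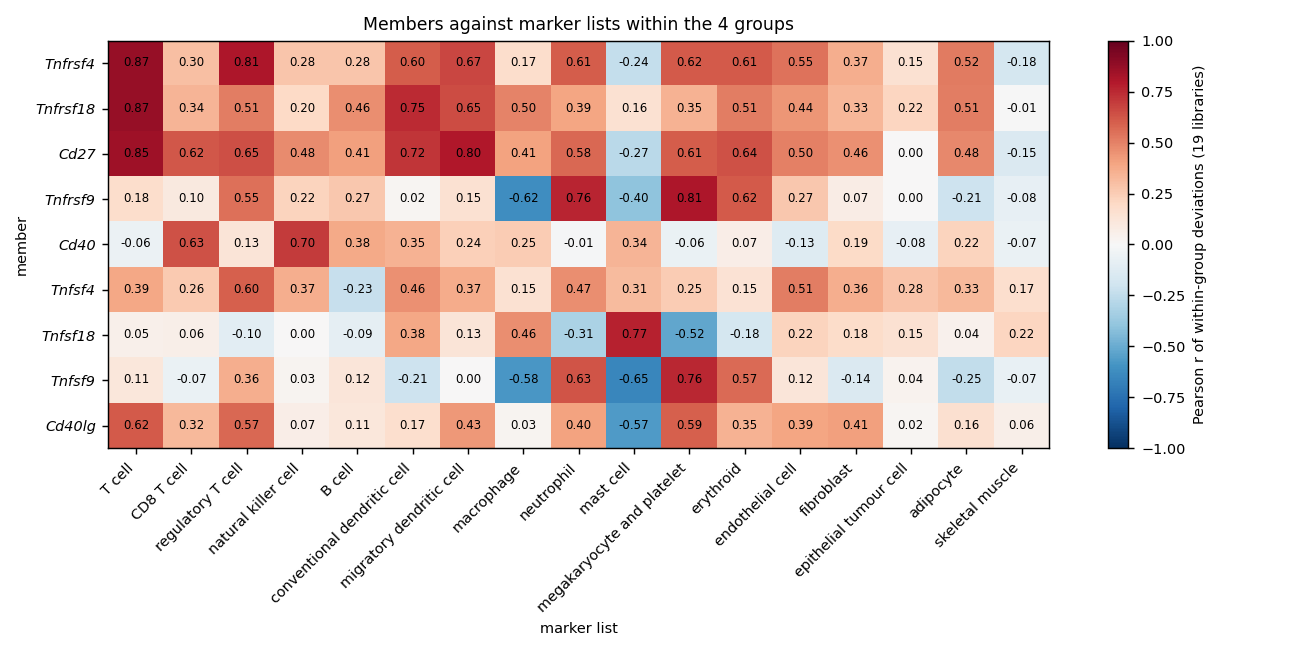
Pearson's r (colour and number) between each of the 9 tested genes (rows) and the mean of each marker list (columns), on deviations from the group mean over 19 libraries. Tnfrsf4, Tnfrsf18 and Cd27 share high values in the T cell column, and Tnfrsf9 and Tnfsf9 have low values there and negative ones in the macrophage column, while in the neutrophil and the megakaryocyte and platelet columns Tnfrsf9, Tnfsf9, Tnfrsf4 and Cd27 all range from 0.58 to 0.81.

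The 3 genes most like each were taken by the same r among genes whose log2 CPM averaged 1 or more, leaving out predicted and unnamed genes. For Tnfrsf4 they were Icos (0.92), Cd2 (0.91) and Zap70 (0.90), for Tnfrsf18 Cd3g (0.92), Cd247 (0.89) and Itgb7 (0.88), and for Cd27 Trac (0.92), Selplg (0.90) and Cd2 (0.89). Most of these encode parts of the T cell receptor complex, its signalling or T cell adhesion. For Tnfrsf9 they were Aebp2, Pfkp and Pgm2 (all 0.94), and Pfkp and Pgm2 encode enzymes of sugar metabolism. For Tnfsf9 they were Ddit3 (0.97), Cited2 (0.96) and Ier3 (0.96), and Ddit3 encodes a transcription factor of the stress response. Those of Cd40 were Fcgr4 (0.95), Gbp8 (0.89) and Klrk1 (0.89). For the scarce genes r was lower, with Zswim3 (0.79), Tcaf2 (0.75) and Enpp2 (0.74) for Tnfsf4, Snap29 (0.86), Gtf3c4 (0.85) and Ddx6 (0.83) for Tnfsf18, and Ikbkb (0.84), Rassf5 (0.83) and Banp (0.83) for Cd40lg.

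The other receptors of the family moved in both directions. Of 23 listed, 20 were tested, and in LDHA-KD against control tumours 8 were called higher and 6 lower under IgG and 8 higher and 3 lower under anti-CTLA-4, with median log2 fold changes of 0.097 and 0.19. Over all genes 16.8% were called higher and 17.5% lower under IgG, and 20.2% and 19.8% under anti-CTLA-4. Under IgG the smallest p belonged to Tnfrsf19 (2.67, SE 0.30), Tnfrsf23 (-1.63, SE 0.19), a decoy receptor, and Tnfrsf12a (-0.81, SE 0.11), the receptor of TWEAK. Under anti-CTLA-4 they were Tnfrsf19 (3.32, SE 0.29), Tnfrsf12a (-1.06, SE 0.10) and Tnfrsf11a (0.98, SE 0.13), which encodes RANK.

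Among 13 other TNF ligands, 4 were called higher and 1 lower under each treatment, beside the same all-gene shares. Those with the smallest p were the same 3 in both, with Eda, a ligand of ectodermal development, lower (-2.26, SE 0.24, under IgG and -1.67, SE 0.22, under anti-CTLA-4). Ltb, the lymphotoxin beta chain, was higher (1.66, SE 0.25, and 1.34, SE 0.22), as was Fasl, the death ligand of cytotoxic lymphocytes (1.81, SE 0.36, and 1.89, SE 0.32).

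Of the 22 genes of TRAF and NF-kB signalling, through which these receptors act, 3 were called higher and 2 lower under IgG and 5 higher and 2 lower under anti-CTLA-4. These counts are near or below the all-gene shares of 16.8% and 17.5% under IgG and 20.2% and 19.8% under anti-CTLA-4, and are no result about the list. Chuk, the IKK-alpha kinase, fell by 0.40 (SE 0.072) and by 0.39 (SE 0.068) on the log2 scale. Nfkbie, an inhibitor of NF-kB, fell by 0.46 (SE 0.084) and by 0.35 (SE 0.079). Traf1, an adaptor of these receptors, rose by 0.39 (SE 0.095) and 0.32 (SE 0.089). None of the genes of these 3 lists was called by edgeR between anti-CTLA-4 and IgG in either tumour type, where 3, 3 and 2 of them (other receptors, other ligands, signalling) in control tumours and 5, 1 and 5 in LDHA-KD tumours had an unadjusted p under 0.05.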

How the data were processed

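The authors deposited raw counts per gene, without normalization. HTSeq 0.5.3, Picard 1.124 and build mm10 are named per the submitters' processing notes; the aligner, annotation release and strand setting are not given in the sources used here, so overlapping genes may share reads. Library preparation used a stranded poly(A) kit, per the labels' protocols.

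The 19 libraries entered 1 fit with edgeR 4.0.16 under R 4.3.3: filterByExpr by group (16763 genes), TMM scaling, 1 coefficient per group, quasi-likelihood F tests, and Benjamini-Hochberg adjustment over all genes (threshold 0.05), tested on simulated data. The first run of that test recovered fewer of all changed genes than the pass mark set for it, and the mark was then replaced by one on changed genes with higher counts, which was met. Lines that name no gene (26.2% to 28.7% of each column) were left out. Alternatives used DESeq2 1.42.0, limma 3.58.1 and others given in the closing section. Coordinates and exonic lengths are those of GENCODE on GRCm38. Named are all members; Ldha; of each pathway list, the 3 called genes with the smallest p; the 3 genes most alike by r; and markers whose level stands beside a result. Members and lists were chosen with earlier results of these data known. No 2 libraries agreed within sampling noise (lowest chi-square per gene 5.01).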

Additional observations from a re-analysis of the deposited data

Results flagged for a closer look

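Within groups, 98 sets of libraries were compared for a value far from the rest, by its gap to the nearest library over the range of the group, and 5 stood out, about as many as chance gives at 1 in 20. None of them was a CPM value of a member. Tnfrsf9 per 100 CPM of CD3 chains was 2614 CPM in control IgG replicate 1, against 758 to 865 in the other libraries of the group. Tnfsf9 on the same scale was 421 in that library, against 112 to 118. Cd27 per 100 CPM of CD3 chains was 9.51 in control IgG replicate 4, against 15.3 to 16.5. Tnfrsf4 on that scale was 32.6 in LDHA-KD anti-CTLA-4 replicate 5, against 22.9 to 25.5. The log2 CPM of Cd40 minus that of Cd40lg was 6.24 in LDHA-KD anti-CTLA-4 replicate 1, against 3.67 to 4.36.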

How the results depend on the processing

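The calls of Tnfrsf4, Tnfrsf18, Cd27, Tnfsf4 and Cd40lg under IgG, and of Tnfrsf4, Tnfrsf18 and Cd27 under anti-CTLA-4, held in all 27 alternatives run for each. These 27 include fits that left out only libraries of groups not compared, and the average over both treatments. Not every alternative therefore changed the libraries compared. The count of members called lower in LDHA-KD tumours under IgG, 1 in the edgeR fit, was 0 with limma voom, with no filter on low counts and with the replicate block, and 0 to 2 when single libraries were left out. Under anti-CTLA-4 that count, 0 in the edgeR fit, was 1 with DESeq2, limma voom and the replicate block, 0 to 2 when single libraries were left out, and 2 without the 4 libraries apart on the second component, an alternative chosen after seeing the data, which also left 3 members called higher in place of 6 and 4308 genes called in place of 6711. With the replicate block the member that changed was Tnfrsf9, with edgeR adjusted p = 0.0927 under IgG and 0.0399 under anti-CTLA-4. The labels do not say that a number marks a shared source, and the numbers were not taken as pairs: of 27 same-numbered pairs across groups, 15 had deviations correlated above 0.1, from -0.21 to 0.39. Their median r was 0.12, against -0.04 for other pairs, and the 4 libraries that stood apart share the numbers 3 and 5, so a link by number is not excluded. The replicate block called no gene in either anti-CTLA-4 comparison. In those 2 comparisons DESeq2 called 12 and 47 genes where edgeR called 0.

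Signs changed for some values that passed no test in any setting. Leaving out 1 library at a time, the anti-CTLA-4 difference in control tumours ranged from -0.21 to 0.0044 for Cd40 and from -0.74 to 0.031 for Tnfsf18. In LDHA-KD tumours it ranged from -0.014 to 0.16 for Cd40 and from -0.19 to 0.072 for Tnfsf4. Tnfsf4 there was 0.020 with limma voom, 0.082 without the 4 libraries and 0.36 averaged over both tumour types, where Cd40 was -0.017. In the interaction, Tnfrsf9 was -0.022 with limma voom, -0.056 with the replicate block and -0.27 without the 4 libraries, Tnfsf18 was 0.047 with the block and 0.069 without the 4 libraries, and Cd40lg was 0.024 with limma voom. Leaving out 1 library there gave -0.12 to 0.25 for Tnfrsf9, -0.28 to 0.16 for Tnfsf9, -0.56 to 0.20 for Tnfsf18 and -0.27 to 0.21 for Cd40lg. The cause of these changes was not tested. Depth limits Cd70, Tnfsf18, Cd40lg and Tnfsf4, with at most 45 counts in any library. The interaction needs all groups, so it was not run on only the groups compared.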
